A study of Mus musculus with 8 samples.

Results

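The 124 late-annotated mouse miRNAs described here are those whose names carry a number of 670 or above, with any letter and either arm. They were taken by name alone from the 611 mouse miRNAs that the arrays measured. The families miR-673, miR-679, miR-702, miR-758, miR-770, miR-877, miR-1193, miR-1197 and miR-1224, with 12 miRNAs on the array, were left out of the set, and 475 mouse miRNAs had lower numbers. The arrays also carried 39 miRNAs of mouse viruses, for a total of 650.

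The cells were C3H10T1/2, a mouse mesenchymal line that responds to hedgehog proteins and can enter the cartilage and bone lineages. The WT group received the wild type N-terminal fragment of Indian hedgehog (IhhN), the MT group received the fragment with the E95K change that is found in brachydactyly type A1, each at 750 nM for 48 h, and the control group was labelled as induced with no protein. The source name of the control samples also carries the figure of 750 nM, which was read here as a shared wording. Both fragments were recombinant human proteins made in E. coli, all groups were cells of the same line, and they differed by no other labelled agent or allele. Each group had 2 RNA samples (n = 2 replicates), and each WT sample was hybridised on 2 arrays, which were averaged, so that 8 arrays on 1 slide held 6 RNA samples. The labels do not say whether the 2 samples of a group came from separate cultures, so p-values measure only the spread between these samples, which may be technical.

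A miRNA is a short RNA cut from a hairpin transcript, and it lowers the output of mRNAs that pair with its seed, the stretch near its 5′ end. Numbers were given to miRNAs in the order in which they were registered, so a high number marks late annotation and not a shared function or family. Many early entries are abundant and conserved. Later entries came largely from sequencing of small RNAs, and some of them were afterwards traced to fragments of other RNAs, such as tRNA in the case of miR-720 and a spacer of the ribosomal RNA precursor in the case of miR-712.

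Signals are intensities after background subtraction. Detection of a probe on an array required more than 50% of its kept spots to be well above background, and a miRNA was detected through any of its probes. Levels are log2 values scaled on each array to the 75th percentile over those 174 probes that all 8 arrays detected, with a floor at 4.08. Of 8 miRNAs listed for mesenchymal cells (such as miR-199a-3p, miR-21-5p and miR-125b-5p), 7 were detected on all 8 arrays and the remaining 1 on some. Where a listed name gave no arm, the arm detected on more arrays was counted. Of the arms not counted, miR-145-3p, miR-21-3p and miR-29a-5p were detected on no array and miR-214-5p on 6. Of 16 measured miRNAs listed for other cell types (liver, neurons, muscle, blood, epithelium, pluripotent cells and others), 15 were detected on no array, and miR-290-3p was detected on 1. Arrays differed in noise: the SD of the negative control spots was 6.63 and 5.61 signal units on the 2 arrays of the first slide column, which held the first array of WT replicate 1 and MT replicate 1, and 2.91 to 3.76 on the remaining 6. Both MT arrays lay in columns 1 and 2 and both control arrays in columns 3 and 4 of the slide, so side and group cannot be told apart by these 2 groups alone, while WT had 1 replicate on each side. All 4 WT arrays lay in row 1 of the slide and all MT and control arrays in row 2, so in both comparisons with WT the row and the group cannot be told apart.

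The mature sequences below belong to the late-numbered miRNAs that were measured well enough to be compared, that is, those found on every array of 1 group or more. There were 13 of these, and 9 had an entry in the RefSeq table of build GRCm38.p6. Sequences run 5′ to 3′, and capitals mark the seed, bases 2 to 8.
mmu-miR-690: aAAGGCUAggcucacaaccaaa
mmu-miR-1904: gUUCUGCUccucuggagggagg
mmu-miR-1895: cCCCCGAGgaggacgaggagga
mmu-miR-1187: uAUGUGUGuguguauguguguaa
mmu-miR-674-3p: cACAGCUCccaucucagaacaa
mmu-miR-1892: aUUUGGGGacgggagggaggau
mmu-miR-1894-3p: gCAAGGGAgagggugaagggag
mmu-miR-1906: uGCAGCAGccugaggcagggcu
mmu-miR-680: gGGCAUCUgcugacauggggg
The other 4 were miR-720, miR-709, miR-689_v15.0 and miR-1897-5p.

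These 9 sequences had no seed in common with each other or with any further miRNA of the array that RefSeq lists. Several were rich in G. miR-1894-3p had 13 G in 22 bases, miR-1892 had 12, and miR-1895 and miR-680 had 10 each. By contrast miR-690 had 4 and miR-674-3p had 2. miR-1187 has 11 U, 8 G, 4 A and no C, much of it as UG repeats, and it shares 11 bases in a row with miR-574-5p, which was itself detected. miR-1894-3p shares 10 bases in a row with miR-30c-1-3p, and miR-1904 shares 9 with miR-1892. A comparison of base composition between the late-numbered and lower-numbered sets was void, because 77.4% and 77.7% of them had a RefSeq sequence, under the minimum of 80% set for it.

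In build GRCm38.p6, miR-690 lies on the minus strand at chr16:28599940-28599961 within the span of Fgf12, a fibroblast growth factor homologue. miR-1904 lies at chr13:109903819-109903840 on the plus strand within Pde4d, which encodes a cAMP phosphodiesterase. miR-1895 lies at chr3:134240515-134240536 on the minus strand within Cxxc4, an inhibitor of Wnt signalling. miR-1892 lies at chr12:54645943-54645964 on the minus strand within Sptssa, a small subunit of serine palmitoyltransferase. miR-1894-3p lies at chr17:35917938-35917959 on the plus strand within Ppp1r10, a nuclear regulator of protein phosphatase 1. No gene other than its own overlapped miR-1187 at chr5:82798964-82798986 (minus strand) or miR-674-3p at chr2:117185186-117185207 (plus strand). miR-1906 has copies at chr12:109544588-109544609, within the imprinted non-coding RNA gene Meg3, and at chrX:88759485-88759506. miR-680 has 3 copies, at chr6:129691541-129691561, chr12:35194849-35194869 and chrX:144297790-144297810. An array cannot tell copies of one mature sequence apart. Whether a site is exonic or intronic was not analysed here.

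Most late-numbered miRNAs were not measurable in these cells. Of 124, 105 were detected on no array, 19 (15.3%) on at least 1 and 7 (5.65%) on all 8. Of the 475 lower-numbered miRNAs, 139 (29.3%) were detected on at least 1 array and 95 (20%) on all 8. Of the viral miRNAs, for which the labels name no infection, 3 of 39 (7.69%) were detected on at least 1 array and 0 on all 8. The late-numbered miRNAs that were detected at all were also detected on fewer arrays: 36.8% of the 19 were found on all 8 arrays, against 68.3% of the 139. As the cells were measured in bulk, fewer cells with a miRNA and less of it per cell cannot be told apart, and a miRNA called not detected has only an upper bound, set by the background of its probes.

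The share detected was lower for the late-numbered set on each of the 8 arrays. Array by array, 7 and 9 of 124 were detected for WT replicate 1, 15 and 16 for WT replicate 2, 8 for MT replicate 1, 15 for MT replicate 2, 16 for control replicate 1 and 14 for control replicate 2. As shares these ran from 5.65% to 12.9%. The lower-numbered miRNAs ran from 20.2% to 27.6% on the same arrays, and the viral miRNAs from 0% to 7.69%. The late-numbered counts in the WT, MT and control groups overlapped. The lowest counts came from the 2 arrays of the first slide column, which had the widest negative control spots, and from the second array of WT replicate 1, whose negative control SD of 3.76 was the next widest. The part of this noise in the detection counts was not tested. Without those 2 arrays of the first column, 9 members were detected on every array in place of 7, while the count on at least 1 array was 19 as before.

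**Figure D1:**
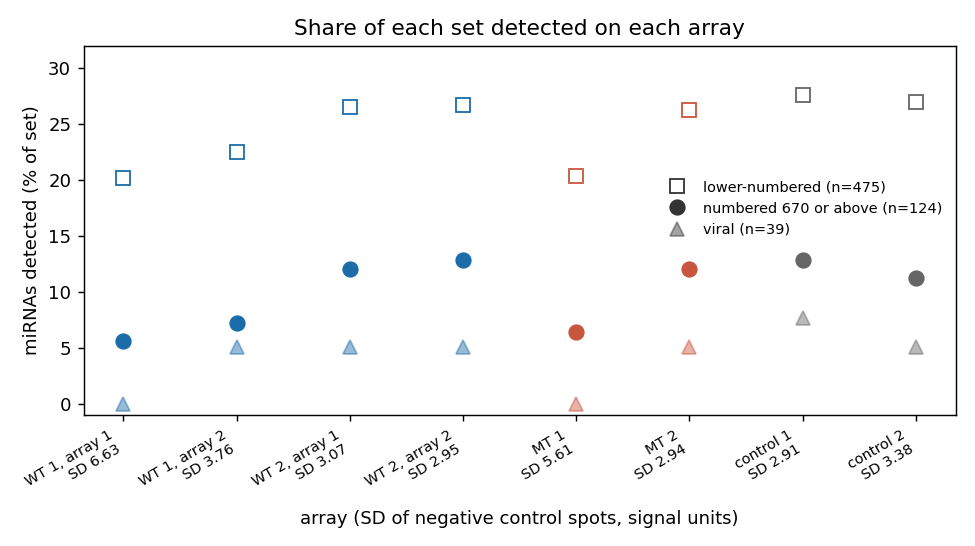
Share of miRNAs detected on each of the 8 arrays (y axis, % of the set) for the 475 lower-numbered (open squares), the 124 late-numbered (filled circles) and the 39 viral miRNAs (pale triangles). Blue is WT, red is MT and grey is control, and the SD of the negative control spots is printed under each array. The late-numbered share lies between 5.65% and 12.9%, below the lower-numbered share on every array.

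There was no step at number 670. Of mouse miRNAs numbered below 100, 54.5% (54 of 99) were detected on at least 1 array. The share was 35.3% in the 100s, 21.1% in the 200s, 20.5% in the 300s, 13.1% in the 400s, 18.8% in the 500s and 17.4% (4 of 23) from 600 up to 670. Within the late-numbered set it was 18.2% (6 of 33) from 670 up to 700 and 13.5% (5 of 37) in the 700s, so the lower part of the set lay within the range of the bands between 400 and 670. From 800 up to 1000 none of 24 was detected. At 1000 or above, 8 of 30 (26.7%) were, the highest share of any band from 200 upwards. On either side of the threshold, 3 of the 12 miRNAs of the miR-669 family were detected, 1 of them on all 8 arrays, and miR-670-5p was not detected. Bands are sets of different miRNAs on the same arrays, so these shares are a description and carry no test.

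**Figure D2:**
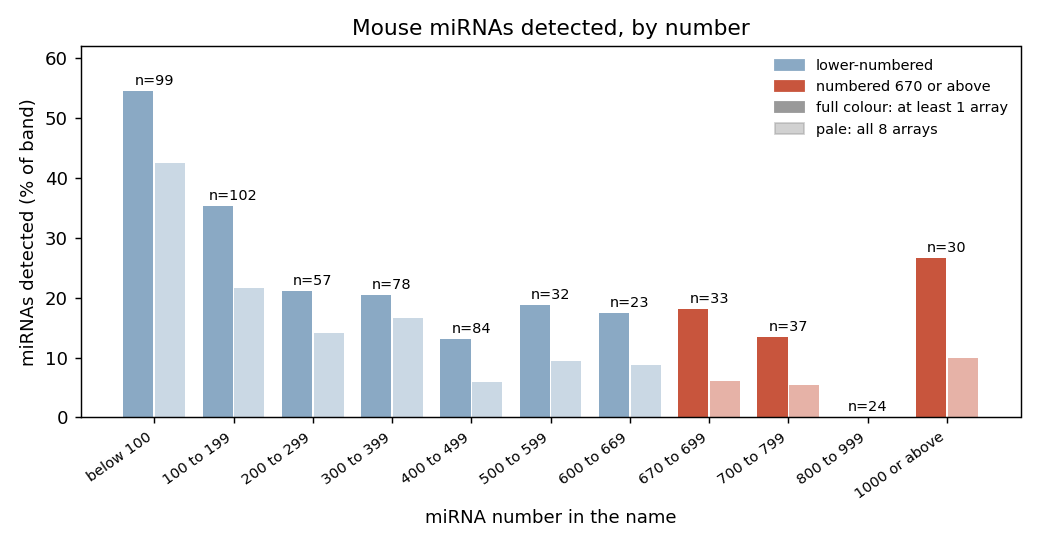
Share of mouse miRNAs detected (y axis, % of the band) by the number in the name (x axis), with the number of miRNAs above each pair of bars. Full colour is detection on at least 1 array and pale colour on all 8, blue for lower-numbered and red for late-numbered miRNAs. The share falls from 54.5% below 100 to 13.1% in the 400s, is 18.2% from 670 up to 700, 0% from 800 up to 1000 and 26.7% at 1000 or above.

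Undetected members gave signals around zero. The mean signal over the 8 arrays of the 105 late-numbered miRNAs detected on no array ranged from -5.61 to 11.3 units with a median of -0.70, and the highest was miR-706. The 336 undetected lower-numbered miRNAs had a median of 0.24 and a highest value of 15.2. Every miRNA had 20 spots per array, but the late-numbered ones were more often split over 4 probes (74 of 124, against 181 of 475 lower-numbered), which leaves fewer spots per probe. The part of the number of probes in the detection shares was not tested. A version suffix, which points to a database release (as in miR-689_v15.0), was carried by 5 late-numbered and 9 lower-numbered names.

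By source and role, the undetected miRNAs included whole groups. None of the 16 measured miRNAs of the X-linked cluster known for expression in testis was detected on any array, and their highest mean signal was 7.16 units. They belong to the miR-741, miR-742, miR-743, miR-871, miR-878, miR-880, miR-881 and miR-883 families. miR-675-3p and miR-675-5p, which are processed from the imprinted H19 RNA, were not detected either, with a highest mean signal of -0.051 units. Of 3 measured miRNAs listed as fragments of other RNAs, miR-720 was detected on all 8 arrays, miR-712-5p on 1 and miR-712-3p on none. Among 9 measured miRNAs with a published role or host gene (both arms of miR-671, miR-708, miR-744 and miR-872, and miR-874-3p), miR-744-5p was detected on 3 arrays and miR-671-5p, known for cutting the circular RNA Cdr1as, on 1. None of those 9 was detected on all arrays of a group.

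Of the 19 members seen at all, 6 were too rarely detected to be tested. Besides miR-744-5p (3 arrays), miR-671-5p and miR-712-5p (1 array each), these were miR-697 (4 arrays), miR-1198-5p and miR-715_v16.0 (1 array each). Their mean levels lay between the floor of 4.08 and 4.32. miR-712-5p stood at 18.3 and 12.2 unscaled units on the arrays of control replicates 1 and 2 and at 2.09 to 8.0 on the 6 arrays of induced cells, but only control replicate 1 gave a detected probe.

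The 13 tested members covered a wide range of signal, with 2 bright members and a tail close to the floor. Signal depends on the probe as well as on the amount of miRNA, so an order of levels between miRNAs is not an order of amounts. miR-720, the tRNA fragment, had levels of 12.76 and 12.80 in the WT samples, 12.00 and 12.85 in the MT samples and 13.30 and 12.47 in the control samples. The 3 groups overlapped, and control replicate 1 was the highest and MT replicate 1 the lowest of the 6 samples.

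miR-709, which is known in mouse cells as a nuclear miRNA acting on other miRNA precursors, had 12.00 and 11.98 in WT, 12.33 and 12.19 in MT and 11.28 and 11.91 in control. Both MT samples were above both WT samples, which in turn were above both control samples. miR-690 had 8.06 and 8.42 in WT, 7.54 and 8.13 in MT and 8.36 and 8.19 in control. Its MT samples lay below both control samples, and MT replicate 1 was lowest.

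miR-689_v15.0 had 6.54 and 6.63 in WT, 6.82 and 6.37 in MT and 6.07 and 6.89 in control, with the control samples on either side of all others. miR-1904, from within Pde4d, had 6.68 and 6.71 in WT, 6.59 and 6.82 in MT and 5.94 and 6.37 in control. Its control samples were below all samples of induced cells. miR-1895, from within Cxxc4, spread most, with 5.79 and 6.11 in WT, 6.40 and 5.83 in MT and 5.29 and 6.59 in control. Here again the control samples were the lowest and the highest of the 6.

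miR-1187, with its UG repeats, had 5.77 and 5.65 in WT, 5.52 and 5.34 in MT and 4.50 and 5.20 in control, so that the groups did not overlap and stood in the order WT, MT, control. miR-1894-3p, from within Ppp1r10, had 4.79 and 4.58 in WT, 5.02 and 4.86 in MT and 4.08 and 4.51 in control. The value of control replicate 1 was the floor after scaling, which does not mean undetected. It was detected on that array, at 25.4 unscaled units, and not on that of MT replicate 1, at 27.6 units. miR-1892, from within Sptssa, had 4.54 and 4.89 in WT, 5.12 and 5.23 in MT and 4.36 and 4.95 in control. Its MT samples were above the 4 others. miR-680 had 4.46 in both WT samples, 5.36 and 4.63 in MT and 4.08 and 4.63 in control. Control replicate 1 was again at the floor after scaling, although miR-680 was detected on that array, at 20.4 unscaled units.

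The remaining tested members had mean levels of 5.22 (miR-674-3p), 4.78 (miR-1897-5p) and 4.61 (miR-1906, the copy within Meg3 included). The first 7 members by level, from miR-720 to miR-1187, were detected on all 8 arrays. The other 6 were detected on 5 or 6 arrays. Each of those 6 passed the filter because it was detected on both control arrays (miR-680 also on both MT arrays), and none of the 13 was undetected on all arrays of any group.

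**Figure D3:**
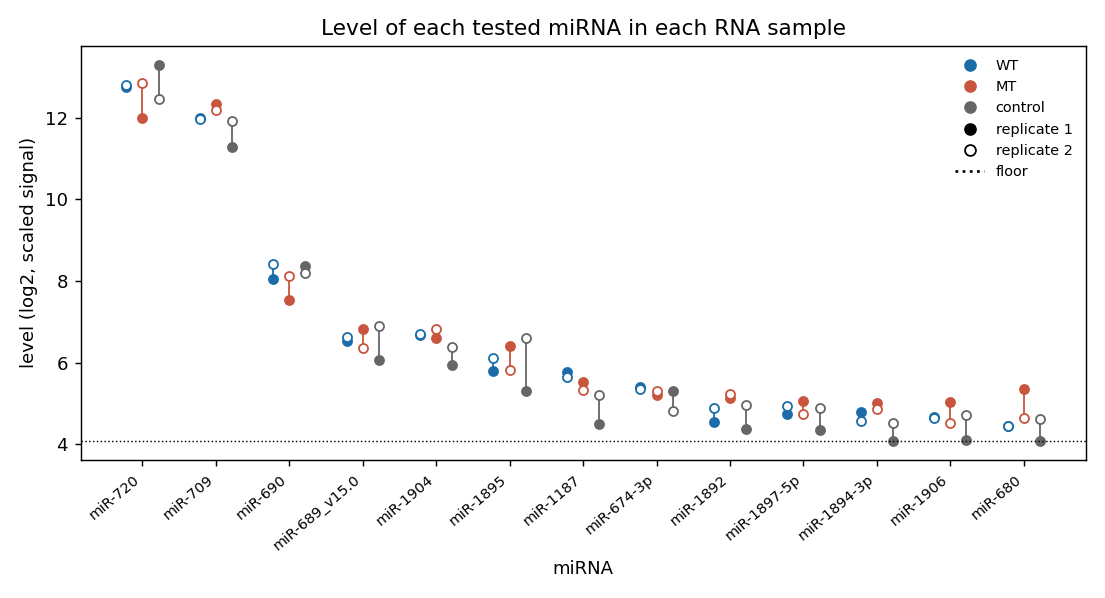
Level of the 13 tested late-numbered miRNAs (y axis, log2 of the scaled signal) in the 6 RNA samples, with WT in blue, MT in red and control in grey, filled for replicate 1 and open for replicate 2 and joined by a line. The dotted line is the floor of 4.08. miR-720 and miR-709 stand far above the rest, and control replicate 1 is the lowest sample for most of the others.

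Repeat arrays of one WT sample differed about as much as the WT samples did, and less than the MT or the control samples did. Over the 7 members detected on all 8 arrays, the median SD between the 2 arrays of one RNA sample was 0.05 in WT replicate 1 and 0.14 in WT replicate 2. The median SD between the 2 RNA samples of a group was 0.06 in WT, 0.32 in MT and 0.49 in control. The WT values are means of 2 arrays and the MT and control values are single arrays. Every tested member had 2 to 4 probes, and the level is that of the brightest. Its differences had the same sign as those of the other probes in all 3 comparisons for 10 of the 13 members, miR-720, miR-709, miR-690, miR-1904 and miR-1187 among them. The probes of miR-1895 disagreed in sign in WT against control, and those of miR-674-3p and miR-1906 in WT against MT.

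The first comparison asks what wild type IhhN does to these miRNAs. None of the 13 tested members passed an adjusted p of 0.05 in limma with Benjamini-Hochberg adjustment over the 142 mouse miRNAs tested, and none of the 142 did (0%). At an unadjusted p under 0.05 stood 2 of 13 members, miR-1187 and miR-1904, beside 28.2% of all miRNAs tested. miR-1187 was 0.85 higher in WT on the log2 scale, or 1.81-fold (SE 0.24, 95% interval 0.28 to 1.43, limma adjusted p = 0.139), and miR-1904 was 0.54 higher (SE 0.19, interval 0.09 to 1.00, limma adjusted p = 0.139). miR-574-5p, which shares 11 bases in a row with miR-1187, was 0.75 higher in WT and 0.77 higher in MT than in control. Whether it contributes to the signal of the miR-1187 probes was not tested. The difference for miR-1894-3p in WT against control was 0.39 (interval -0.08 to 0.85, limma adjusted p = 0.212). For miR-709 it was 0.40 (interval -0.13 to 0.93), and for the bright miR-720 it was -0.10 (interval -0.93 to 0.73). WT and control samples did not overlap in 5 of 13 members, against 64.8% of all tested miRNAs. With normexp background correction 2 of 13 members passed the adjusted threshold, beside 24.6% of all tested. With a term for slide side, added after the data were seen, the limma counts under an unadjusted p of 0.05 were 0 of 13 members and 4 of 142 miRNAs. Both control samples lay on the side of WT replicate 2, so with that term the difference is WT replicate 2 minus the control mean. WT replicate 1 then serves only to estimate the side. So fitted, 12 of 13 members were higher than in control (median 0.23), beside 60.6% of all tested. In the main fit 11 of 13 were (median 0.22).

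In the second comparison, of the E95K mutant protein with no protein, again none of 13 members and none of the 142 (0%) passed the adjusted threshold in limma, while 4 of 13 members had an unadjusted p under 0.05 beside 39.4% of all tested. These were miR-1894-3p, higher in MT by 0.64 (SE 0.20, 95% interval 0.18 to 1.11, limma adjusted p = 0.066), miR-709 by 0.66 (SE 0.22, interval 0.13 to 1.19, limma adjusted p = 0.089), miR-1904 by 0.55 (SE 0.19, interval 0.10 to 1.01, limma adjusted p = 0.089) and miR-1187 by 0.58 (SE 0.24, interval 0.0032 to 1.15, limma adjusted p = 0.124). For miR-720 the difference was -0.46 (interval -1.29 to 0.37) and for miR-690 -0.44 (interval -1.0 to 0.12). MT and control samples did not overlap in 7 of 13 members, against 67.6% of all tested miRNAs. With the term for slide side, on which MT and control lay wholly apart, 0 of 13 members and 0 of 142 miRNAs had an unadjusted p under 0.05, and the smallest limma adjusted p of a member was 0.945. With that term 11 of 13 members were higher in MT (median 0.45), beside 63.4% of all tested. In the main fit 11 of 13 were too (median 0.37). The term rests on the 2 WT samples alone, 1 on each side. The part of slide side in these differences was not tested. Leaving out MT replicate 2 brought 1 of 13 members (miR-680, difference 1.01) past the adjusted threshold, beside 12.0% of all tested. With normexp background correction 4 of 13 members passed beside 28.9% of all tested, and with only the miRNAs detected on all 8 arrays 1 of 7 (miR-709) beside 28.2%.

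The third comparison sets the wild type protein against the mutant. No member passed the adjusted threshold and none had an unadjusted p under 0.05, as held for all 142 miRNAs (0% and 0%) in limma. The smallest p-values among members belonged to miR-1892, with a WT minus MT difference of -0.46 (SE 0.23, 95% interval -1.02 to 0.09), miR-680 with -0.54 (SE 0.28, interval -1.21 to 0.13) and miR-690 with 0.40 (SE 0.24, interval -0.16 to 0.97), each at a limma adjusted p of 0.99. Samples of the 2 groups did not overlap in 6 of 13 members, against 26.1% of all tested. Each of these intervals includes 0 and reaches 0.97 or more in size on one side.

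**Figure D4:**
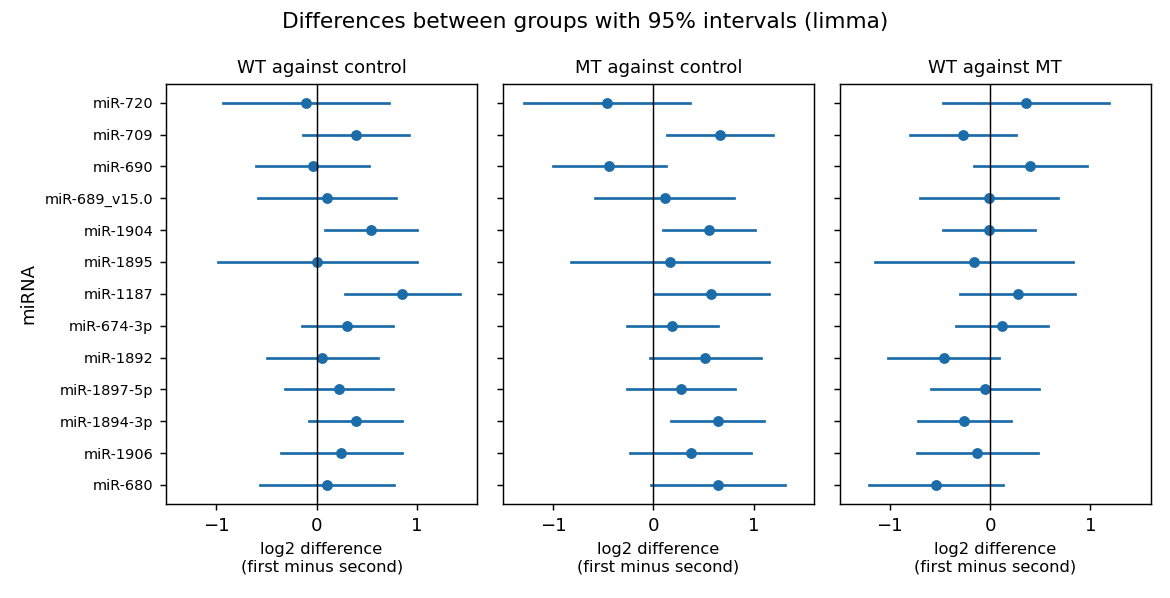
Difference in level (x axis, log2, first group minus second) with its 95% interval from the limma fit for the 13 tested late-numbered miRNAs (y axis, ordered by level) in the 3 comparisons. In WT against control the interval of miR-1187 runs from 0.28 to 1.43, and in WT against MT every interval includes 0.

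Counts of direction put the members beside all tested miRNAs. In WT against control 11 of 13 members had a higher mean in WT (median difference 0.22), and of all 142 it was 61.3% (median 0.11). In MT against control 11 of 13 were higher in MT (median 0.37) beside 57.7% (median 0.13). In WT against MT 4 of 13 were higher in WT (median -0.05) beside 37.3% (median -0.04). Over the 7 members detected on all 8 arrays, 5 were higher in WT than in control (median 0.10) and 5 in MT than in control (median 0.17). Of the 103 miRNAs detected on all 8, 65.0% were higher in WT (median 0.17) and 59.2% in MT (median 0.14). WT against control and MT against control share their control samples. Without control replicate 1, 8 of 14 members were higher in WT (median 0.06) beside 60.3% of all tested (median 0.14), and 10 of 14 in MT (median 0.23) beside 63.0% (median 0.15). Without control replicate 2, 13 of 16 were higher in WT (median 0.44) beside 57.3% (median 0.07), and 11 of 16 in MT (median 0.61) beside 53.3% (median 0.08).

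These directions depended on the scaling. With no scaling between arrays, which was an alternative added after the data were seen, 2 of 13 members were higher in WT than in control and 2 of 13 in MT than in control, and over all tested miRNAs 12.0% and 13.4% were (median differences -0.34 and -0.50). With the 75th percentile taken over all mouse probes, 5 of 13 and 1 of 13 members were higher, beside 29.6% and 10.6% of all tested (medians -0.19 and -0.51), and in WT against MT 11 of 13 members were, beside 92.3% (median 0.30). Of the differences that were positive against control, those of miR-1187 and miR-1904 in WT and of miR-680 in MT kept their sign under both.

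Before scaling, some members hardly differed between the RNA samples. The 75th percentile of detected probes was 785 signal units in control replicate 1, 606 in control replicate 2, 481 and 504 in WT and 442 and 432 in MT, a highest over lowest ratio of 1.82. The unscaled signal of miR-709 was 3818 and 3977 in WT, 4382 and 3883 in MT and 3759 and 4499 in control, a coefficient of variation of 7.67% over 6 samples. That of miR-1904 was 95.3 and 100.9 in WT, 82.3 and 94.3 in MT and 92.8 and 96.8 in control (6.68%). miR-1894-3p ran from 23.4 to 27.6 units (6.04%). None of these followed the 75th percentile, which was highest in control replicate 1.

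Others varied at least as much as the percentile did, whose log2 values had an SD of 0.33 over the 6 samples. miR-720 had 6433 and 6916 units in WT, 3492 and 6141 in MT and 15257 and 6619 in control, a coefficient of variation of 53.6%, with control replicate 1 far above the rest. miR-690 had 249 and 341 in WT, 158 and 233 in MT and 497 and 341 in control (38.8%). For miR-674-3p control replicate 1 was again the highest, at 59.5 units against 31.3 to 39.2 in the others (27.0%). On the log2 scale the SD over the 6 samples was 0.36 with scaling and 0.11 without it for miR-709, 0.32 and 0.10 for miR-1904, and 0.33 and 0.09 for miR-1894-3p. It was the other way round for miR-720 (0.43 with and 0.68 without), miR-690 (0.31 and 0.57) and miR-674-3p (0.21 and 0.34).

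Over the whole set, the spread was smaller without scaling in 9 of 13 tested members, and in 39 of 126 tested lower-numbered miRNAs. Among dim miRNAs, with a mean level under 7, it was smaller in 8 of 10 members and in 23 of 72 lower-numbered miRNAs. The median SD of the 13 members was 0.33 scaled and 0.25 unscaled, while for the 126 lower-numbered miRNAs it was 0.25 scaled and 0.35 unscaled. The 6 samples include all groups, so these SDs hold group differences as well as replicate spread. The differences between groups given above for miR-709, miR-1904 and miR-1894-3p are thus differences relative to the other detected miRNAs. With no scaling they were -0.10 for miR-709, 0.050 for miR-1904 and -0.10 for miR-1894-3p in WT against control. In MT against control they were -0.11 for miR-1904 and -0.0099 for miR-1894-3p. That of miR-709 kept its positive sign there, with overlapping samples.

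**Figure D5:**
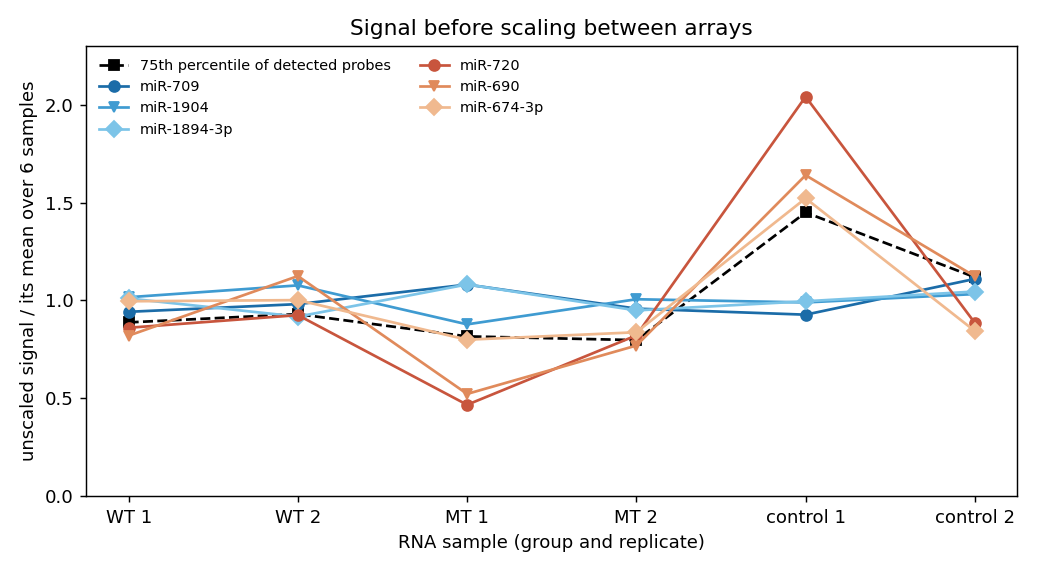
Signal before scaling between arrays, divided by its mean over the 6 RNA samples (y axis), for 6 late-numbered miRNAs and for the 75th percentile of the detected probes (dashed, squares), in each RNA sample (x axis). miR-709, miR-1904 and miR-1894-3p (blue) stay near 1, with coefficients of variation of 6.04% to 7.67%, while miR-720, miR-690 and miR-674-3p (orange and red) peak in control replicate 1 like the percentile does. Other variable members, such as miR-1895, miR-689_v15.0 and miR-680, peaked in other samples and are not drawn.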

How the data were processed

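Total RNA of C3H10T1/2 cells was measured on 8 one-colour (Cy3) Agilent miRNA arrays. Scanner output was deposited by the authors array by array, giving the intensity of each spot after background subtraction by Feature Extraction (version 9.1 in the submitters' processing notes, 10.7.1.1 in the file headers), together with a table of the whole series that equals the background-subtracted intensity within 0.2 signal units and was not used. No normalization by the authors is stated in the sources at hand. The deposited marks for outlier, well above background and saturated spots were read as scores, and 0 spots were saturated. The number of arrays limits the precision.

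Control and outlier spots were left out, spots were averaged per probe, and arrays were scaled to the 75th percentile over probes that every array detected. The floor was the median, over arrays, of the lowest scaled value of a detected probe, and log2 followed. The brightest probe stood for a miRNA. The 142 mouse miRNAs found on every array of 1 group or more were fitted over all 3 groups with lmFit and eBayes of limma 3.58.1 (R 4.3.3), with Benjamini-Hochberg adjustment and a threshold of 0.05. The fit was tested on simulated data. Replicate numbers were not treated as pairs. Figures used matplotlib version 3.10.9.

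Named miRNAs were the tested members, with every sample's level for the 5 highest and for up to 3 with the smallest p in each comparison and for those past 0.05. Rarer members were named with their number of arrays and undetected ones counted by list. miR-674-3p and miR-712-5p were given with further values after these were seen. Members and lists were chosen with earlier results of these data known, the lists from general knowledge. Alternatives covered scaling, normalization, signal column, background correction, floor, filters, probes, outlier spots, technical arrays, replicate block, samples in the fit, intensity trend, detection rule, membership and left-out replicates. After the data were seen, no scaling, the first slide column left out and a term for slide side were added.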

Additional observations from a re-analysis of the deposited data

How the results depend on the processing

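The count of members past the adjusted threshold was 0 in all 3 comparisons of the main fit. It became 1 of 19 (miR-712-5p) in WT against control and in MT against control with the total gene signal, beside 4 of 166 miRNAs in each. Its limma adjusted p was 0.00046 in both. In that setting the filter used Feature Extraction's own detection call, while the main rule detected miR-712-5p only in control replicate 1. Either filter can pass a miRNA through control alone, so this call carries little weight. With normexp the count was 2 of 13 (miR-1187, miR-674-3p) beside 35 of 142, and 4 of 13 (miR-1187, miR-1892, miR-1904, miR-674-3p) beside 41 of 142. In MT against control it was 1 of 7 (miR-709) beside 29 of 103 with only miRNAs detected on all 8 arrays, and 2 of 13 (miR-690 and miR-720, both lower in MT) beside 50 of 142 with no scaling, which called 0 members beside 28 of 142 in WT against control. Leaving out 1 replicate gave 0 to 1 in MT against control (1 without MT replicate 2, beside 17 of 142) and 0 to 0 in the others. The cause was not tested. With the replicate block the counts were 0, 0 and 0, and the correlations of same-numbered deviations (0.02 between WT and MT, 0.39 between WT and control, -0.46 between MT and control) did not show pairs. With a term for slide side they were 0, 0 and 0, and the members at an unadjusted p under 0.05 went from 2 to 0 in WT against control (40 to 4 of all 142) and from 4 to 0 in MT against control (56 to 0 of 142). The median member differences with that term were 0.23 and 0.45 in these comparisons, beside 0.22 and 0.37 in the main fit. With that term only WT replicate 2, which shared the side of the control samples, was set against control. The MT difference rested on a side estimate from the 2 WT samples alone. Detection on all arrays moved from 7 to 12 members with Feature Extraction's own call (27 on at least 1 array), and the share on at least 1 array stayed under that of lower-numbered miRNAs (21.8% and 35.6%). It was 7 to 8 on all arrays and 17 to 19 on at least 1 without single replicates.

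Of 918 member differences under alternatives, 108 changed sign. No member difference was past the threshold in the main fit, whether its sign changed or not. With the 75th percentile over all mouse probes, WT minus control became -0.22 for miR-1892, -0.35 for miR-1895, -0.11 for miR-1897-5p, -0.10 for miR-1906, -0.051 for miR-674-3p and -0.25 for miR-689_v15.0. MT minus control became -0.14 for miR-1187, -0.20 for miR-1892, -0.044 for miR-1894-3p, -0.54 for miR-1895, -0.43 for miR-1897-5p, -0.16 for miR-1904, -0.33 for miR-1906, -0.53 for miR-674-3p, -0.60 for miR-689_v15.0 and -0.052 for miR-709. WT minus MT became 0.088 for miR-1894-3p, 0.20 for miR-1895, 0.33 for miR-1897-5p, 0.35 for miR-1904, 0.23 for miR-1906, 0.35 for miR-689_v15.0 and 0.090 for miR-709.

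With no scaling, WT minus control was -0.44 for miR-1892, -0.10 for miR-1894-3p, -0.48 for miR-1895, -0.27 for miR-1897-5p, -0.25 for miR-1906, -0.19 for miR-674-3p, -0.22 for miR-680, -0.39 for miR-689_v15.0 and -0.10 for miR-709. MT minus control was -0.081 for miR-1187, -0.14 for miR-1892, -0.0099 for miR-1894-3p, -0.49 for miR-1895, -0.38 for miR-1897-5p, -0.11 for miR-1904, -0.28 for miR-1906, -0.47 for miR-674-3p and -0.55 for miR-689_v15.0. WT minus MT was 0.0048 for miR-1895, 0.11 for miR-1897-5p, 0.15 for miR-1904, 0.039 for miR-1906 and 0.16 for miR-689_v15.0.

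With the total gene signal, WT minus control was -0.42 for miR-1892, -0.083 for miR-1895, -0.16 for miR-1897-5p and -0.30 for miR-680, MT minus control was -0.0043 for miR-1894-3p, and WT minus MT was 0.061 for miR-1894-3p, 0.079 for miR-1904, -0.36 for miR-674-3p and 0.18 for miR-689_v15.0. With quantile normalization, WT minus control was -0.12 for miR-1892, -7.5e-06 for miR-1895, -0.029 for miR-680 and 0.0024 for miR-690, and WT minus MT was 0.078 for miR-1897-5p, 0.061 for miR-1904 and 0.028 for miR-1906. Without the first slide column, MT minus control was -0.17 for miR-1895, -0.0062 for miR-1906 and -0.17 for miR-689_v15.0, and WT minus MT was 0.18 for miR-1895, 0.020 for miR-1897-5p, 0.076 for miR-1906, 0.28 for miR-689_v15.0 and -0.043 for miR-720. For WT minus control, miR-690 turned to 0.14 with the first technical array alone, to 0.14 with the term for slide side and to 0.014 with normexp, miR-1895 to -0.037 with the mean of all probes, and miR-1892 to -0.074 with the second technical array alone. For WT minus MT, the second technical array alone gave 0.13 for miR-1904 and 0.092 for miR-689_v15.0, normexp gave 0.00055 for miR-1904 and 0.0069 for miR-1906, and kept outlier spots gave -0.039 for miR-674-3p and 0.021 for miR-689_v15.0.

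Leaving out 1 replicate at a time, WT minus control ran from -0.22 to 0.19 for miR-690, -0.24 to 0.35 for miR-1892, -0.64 to 0.66 for miR-1895, -0.17 to 0.38 for miR-680, -0.051 to 0.50 for miR-1897-5p, -0.049 to 0.54 for miR-1906, -0.31 to 0.52 for miR-689_v15.0 and -0.52 to 0.31 for miR-720. MT minus control ran from -0.48 to 0.82 for miR-1895, -0.30 to 0.52 for miR-689_v15.0 and -0.050 to 0.43 for miR-674-3p. WT minus MT ran from -0.45 to 0.16 for miR-1895, -0.21 to 0.14 for miR-1897-5p, -0.094 to 0.10 for miR-1904, -0.23 to 0.25 for miR-689_v15.0, -0.39 to 0.17 for miR-1906 and -0.035 to 0.78 for miR-720. A group left with 1 sample was assumed to vary like the others. With 1 slide in all, no slide block was possible.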
